A study of Mus musculus with 5 samples.

Results

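Untreated-only distal peaks are sites of acetylated histone H3 lysine 9 (H3K9ac) that were called in untreated STHdh Q111 cells, overlapped no peak called after treatment with 4-deoxypyridoxine (DOP), and had a centre more than 10 kb from the nearest start of a protein-coding transcript. There were 1832 such peaks. They made up 5.49% of the 33355 untreated peaks (95% Wilson interval 5.25 to 5.74%) and 38.9% of the 4705 distal untreated peaks (37.6 to 40.3%). Both lists together held 67641 peaks. The paper's methods state smaller lists than those deposited, and how those relate to the deposited lists is not given, so the shares refer to the deposited lists. The members were chosen by the 2 peak lists themselves, so their number, their scores and their distance from DOP peaks are descriptions and were not tested.

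STHdh Q111 cells are an immortalized striatal progenitor line from mice (strain C57BL/6) whose genotype is given as STHdhQ111/Q111, which carries an expanded CAG repeat in both copies of the huntingtin gene. All cells were in serum-free medium for 24 h, either with vehicle (untreated, 2 samples) or with 4 mM DOP (2 samples), so serum starvation was common to both groups. DOP inhibits sphingosine-1-phosphate lyase, the enzyme that irreversibly breaks down sphingosine-1-phosphate. The 2 samples of a condition were given as 1 peak list, all from 1 cell line, so no spread between replicates could be measured, the depth behind each peak is unknown, and the tests below compare sets of peaks, not conditions. Of 8 genes that mark neural or striatal progenitors and their neurons (Nes, Vim, Sox2, Dlx2, Gsx2, Isl1, Bcl11b and Ppp1r1b), which were picked with earlier results known, 1 (Vim) had an untreated peak within 1 kb of a start and the other 7 had none. In the DOP list, Vim and Ppp1r1b had one.

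H3K9ac is deposited by histone acetyltransferases such as Gcn5 and Pcaf and is removed by histone deacetylases. It is richest around the starts of active genes, and it is also found at active enhancers, which may lie far from any promoter, inside introns or between genes. Peaks far from protein-coding starts may therefore also mark the starts of non-coding transcripts, among them the long precursors from which microRNAs are cut.

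Base sequences of 4 members, all on the plus strand of mm9, are shown first because they were among the highest-scoring members and were single-copy by the word search described further on. CpG dinucleotides, which are dense at most promoters, are in capitals.
Upstream of Mirlet7c-2, chr15:85503344-85503543: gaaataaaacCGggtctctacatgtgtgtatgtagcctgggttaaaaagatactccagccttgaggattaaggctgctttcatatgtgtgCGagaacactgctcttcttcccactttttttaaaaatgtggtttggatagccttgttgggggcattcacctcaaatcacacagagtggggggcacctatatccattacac
Beside the lincRNA 9430091E24Rik, chr8:113669893-113670092: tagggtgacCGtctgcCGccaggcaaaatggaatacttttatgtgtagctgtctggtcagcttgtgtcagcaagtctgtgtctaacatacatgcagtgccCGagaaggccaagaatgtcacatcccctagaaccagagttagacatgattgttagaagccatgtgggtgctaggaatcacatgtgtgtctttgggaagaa
Upstream of Mir23a, chr8:86725786-86725985: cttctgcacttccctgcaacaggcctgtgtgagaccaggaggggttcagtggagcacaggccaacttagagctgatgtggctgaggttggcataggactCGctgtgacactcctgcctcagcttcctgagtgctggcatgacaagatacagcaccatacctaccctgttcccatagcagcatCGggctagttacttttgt
Upstream of Mir29b-1, the lower of the pair, chr6:31036955-31037154: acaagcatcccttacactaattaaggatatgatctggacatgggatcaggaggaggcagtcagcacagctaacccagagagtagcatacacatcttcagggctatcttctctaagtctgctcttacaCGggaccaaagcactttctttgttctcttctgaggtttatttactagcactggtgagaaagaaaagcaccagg
These 4 members held between 1 and 3 CpG dinucleotides each. A further top member near Mirlet7c-2, not shown, with a score of 702, held 6.

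A set of 3 members with the 7 letters TGACTCA or their reverse complement, read on both strands, is shown next because these letters, bound by the Fos and Jun proteins of the AP-1 family, are one of the sequence features compared further on. The letters are in capitals.
Upstream of Mir29b-1, the higher of the pair, chr6:31037700-31037899: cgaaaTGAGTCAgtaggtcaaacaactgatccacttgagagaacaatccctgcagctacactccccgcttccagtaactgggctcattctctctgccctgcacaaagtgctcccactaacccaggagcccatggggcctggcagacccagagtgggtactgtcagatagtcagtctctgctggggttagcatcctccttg
In Pvt1, chr15:61871196-61871395: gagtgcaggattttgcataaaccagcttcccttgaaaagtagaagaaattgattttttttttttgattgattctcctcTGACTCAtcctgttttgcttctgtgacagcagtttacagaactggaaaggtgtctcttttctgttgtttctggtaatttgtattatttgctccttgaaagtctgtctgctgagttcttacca
Intron of C130039O16Rik, chr12:85516831-85517030: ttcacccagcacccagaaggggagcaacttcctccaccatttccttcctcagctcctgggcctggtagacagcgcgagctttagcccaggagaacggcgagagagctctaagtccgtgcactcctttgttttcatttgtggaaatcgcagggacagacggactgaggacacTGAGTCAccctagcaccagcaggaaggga
The first of these is the neighbour of the last sequence of the preceding set.

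A pair of members that held sequence found elsewhere in the assembly is shown because reads from such sequence can match several places. Capitals mark the bases covered by 36-base words that occur more than once.
Intron of Mid1, chrX:166443239-166443438: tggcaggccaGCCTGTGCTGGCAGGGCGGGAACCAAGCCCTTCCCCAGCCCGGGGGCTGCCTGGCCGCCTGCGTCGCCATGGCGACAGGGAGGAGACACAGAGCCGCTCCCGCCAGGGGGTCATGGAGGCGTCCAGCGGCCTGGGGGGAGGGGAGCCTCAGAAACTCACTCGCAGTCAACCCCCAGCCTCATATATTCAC
Beside the pseudogene Gm9770, chr10:129849350-129849549: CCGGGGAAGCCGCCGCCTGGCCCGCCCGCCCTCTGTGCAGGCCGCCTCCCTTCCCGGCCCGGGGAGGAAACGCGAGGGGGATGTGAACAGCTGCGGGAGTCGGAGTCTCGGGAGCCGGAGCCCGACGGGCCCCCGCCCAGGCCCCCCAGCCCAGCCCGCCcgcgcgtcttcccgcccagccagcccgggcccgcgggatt
Of the 36-base words of the first, 90.9% occurred again, and of those of the second, 75.8%.

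Most members were weak peaks. Each peak carries a score, whose definition is not stated in the sources used here. It ran from 21 to 1245 among the members, with a median of 56. Ranked among all untreated peaks, the median member stood at percentile 5.25, and 88.8% of members (1626) were in the lowest 20% of the list. Shared distal untreated peaks had a median score of 182 (percentile 22.6), and distal peaks found only in the DOP list stood at a median percentile of 6.25 within their own list. Scores of the 2 lists are not known to share a scale, so the lists are compared by rank (percentile within the list) only.

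The share of peaks that overlapped no peak of the other list was far from even over the list. It was 16.7% over all untreated peaks (5564 of 33355), 13.0% among the untreated peaks up to 10 kb from a start (3732 of 28650), and 38.9% among the distal ones, as given above. The reverse share was 43.8% of the distal DOP peaks (2235 of 5107), whereas 6861 of all 34286 DOP peaks overlapped no untreated peak. Non-overlap was thus more frequent among distal peaks in either direction.

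The members fell into 2 groups by their distance from the DOP list. The nearest DOP centre was a median of 21879 bp away, and 1381 members (75.4%) had none within 5 kb. Of these isolated members, 1317 were in the lowest 20% by score. In contrast, 335 members (18.3%) lay within 1 kb of a DOP centre without overlapping that peak, which is 200 bp long like almost all others. The split was similar in DOP-only distal peaks, of which 78.7% had no untreated centre within 5 kb and 15.3% had one within 1 kb. Only 39 members reached the top 50% of the list by score, and 29 of these lay within 1 kb of a DOP centre, 2 lay between 1 and 5 kb, and 8 lay farther away. In 24 of the 29, the nearest DOP peak ranked higher in its own list than the member did in the untreated list.

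**Figure D1:**
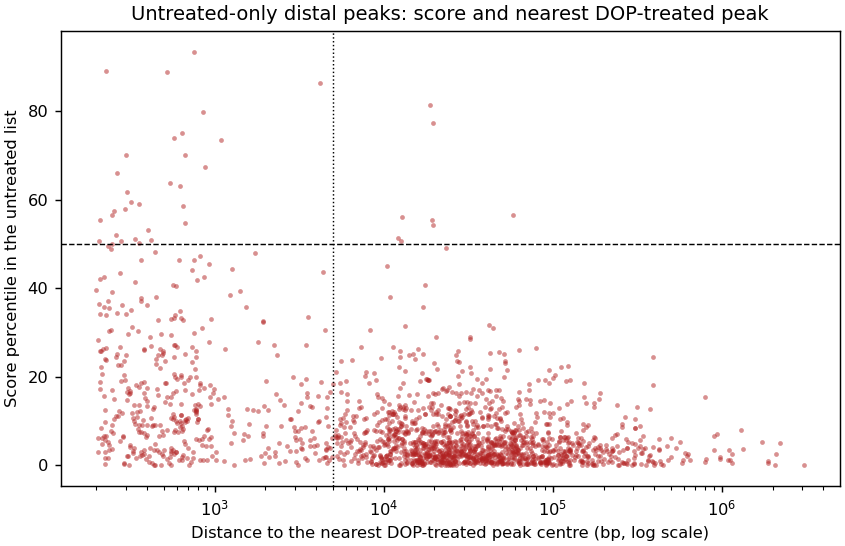
Score percentile of each of the 1832 members in the untreated list against the distance (bp, log scale) from its centre to the nearest DOP peak centre. The dashed line marks percentile 50 and the dotted line marks 5 kb, and of the 39 members above the dashed line only 8 lie to the right of the dotted one.

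At the edges of the rule, the members nearest to a start were 10021 bp from Pgs1 and 10029 bp from Gm17455, and the untreated-only peaks just inside the limit were 9998 bp from Rfwd3 and 9990 bp from Frmd5. The members nearest to a DOP centre lay 200 bp away in an intron of Ergic1 and 203 bp away in an intron of Arhgap22, and the smallest overlaps that kept a distal peak out were 1 bp and 3 bp.

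The strongest isolated members lay upstream of a microRNA gene pair. Mir29b-1 and Mir29a encode miR-29 microRNAs, which are best known for repressing collagen and other matrix genes. They lie on the minus strand of chromosome 6, with their hairpins at 31013017 to 31013097 and at 31012660 to 31012747. A chain of 4 members ran from 31033147 to 31039136, which is 20149 bp from Mir29b-1 at its nearest centre and on its upstream side. The scores in order along the chromosome were 392, 741, 825 and 321. The member scoring 825 (percentile 81.4) lay 113 bp from the start of Gm13834, an annotated processed transcript on the same strand as the microRNAs, and the member scoring 741 lay 858 bp from it.

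No DOP peak fell in this chain. The nearest DOP centre was 18795 bp from the member scoring 825 and belonged to a weak peak shared by both lists, at percentile 6.35 of the untreated list and 6.64 of the DOP list. Farther upstream, a stronger site carried 2 shared peaks, at percentiles 69.9 and 57.1 of the untreated list and 69.9 and 57.6 of the DOP list. Within 60 kb of the top member, 5 of the 8 untreated peaks were members. The member outside the chain lay at the stronger site, beside the shared peaks, and scored 342.1 (percentile 43.3). That site also held a peak of the DOP list alone, at percentile 30.0. Thus, the chain was missing from the DOP list while neighbouring peaks were called in both lists. The nearest protein-coding starts were those of Klf14 and AB041803, and for Klf14 the distance from the top member was 128809 bp.

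The other strong isolated members were few. A pair of members in an intron of Mbnl2, a splicing regulator, scored 452.5 and 440.5 and lay 19242 and 19695 bp from the nearest DOP centre. The member beside the pseudogene Gm9770, near Vmn2r85, scored 463 and was 58202 bp from a DOP centre, but it is one of the repeated sequences shown above. The remaining 3 of the 8, which were picked out after their values were seen, were a pair in Eftud1 (411.1 and 405.9) and 1 peak in an intron of Vps45 (457), each at least 12145 bp from a DOP centre. These too held repeated sequence. Of the 12-base words, 56.1% and 64% in Eftud1 and 100% in Vps45 were repeated within 1 kb, and 96.4% of the 36-base words of the Vps45 member occurred again in the assembly. The pairs near Mir29b-1 and in Mbnl2 were thus the 4 of the 8 that stayed under both limits on repetition.

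The highest-scoring member lay at a locus of a different kind. Mirlet7c-2 and Mirlet7b encode let-7 microRNAs, which promote differentiation and restrain growth genes. They lie on the plus strand of chromosome 15, and the members were upstream of them. A chain of 5 members from 85498062 to 85511701 had scores between 407.3 and 1245, and the member scoring 1245 (percentile 93.4) was 33590 bp from Mirlet7c-2. The chain also held shared peaks: its span contained 14 untreated peaks and 10 DOP peaks, and every member lay between 261 and 758 bp from a DOP centre. Within 60 kb of the top member, the highest peak stood at percentile 99.7 of the untreated list and 99.8 of the DOP list. The nearest protein-coding gene was Ppara, a nuclear receptor of fatty acid catabolism, with a start at least 54393 bp from any of the 5. Here the members were single events inside a stretch with peaks called in both lists.

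Most other high-scoring members were also next to DOP peaks. A member scoring 1042 lay 612 bp from the start of the lincRNA 9430091E24Rik, upstream of it, and 227 bp from a DOP centre. It stood at percentile 89.0 of its list and the DOP peak at 95.7. A member scoring 1037 lay 6532 bp upstream of Mir23a, the first of the miR-23a, miR-27a and miR-24-2 cluster, and 521 bp from a DOP centre. Its nearest protein-coding start was that of Nanos3, a germ cell gene, at 25434 bp. A member in Tnrc6b, which encodes a protein of the microRNA silencing complex, scored 684. A pair of members in the region of Gm17379 and Mid1 on chromosome X scored 951 and 795, and the sequence of the second is the repeated one shown above.

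MicroRNA genes were looked at across all members after these loci had been seen, so the counts are a description. A named microRNA gene lay within 50 kb of 41 members (2.24%) and of 4.91% of the shared distal untreated peaks. Among peaks in the top 50% by score, the counts were 8 of 39 members (20.5%, interval 10.8 to 35.5%), 70 of 602 shared distal peaks (11.6%) and 4 of 32 DOP-only distal peaks (12.5%). The 8 members came from 3 loci, namely those of Mir29b-1, Mirlet7c-2 and Mir23a.

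**Figure D2:**
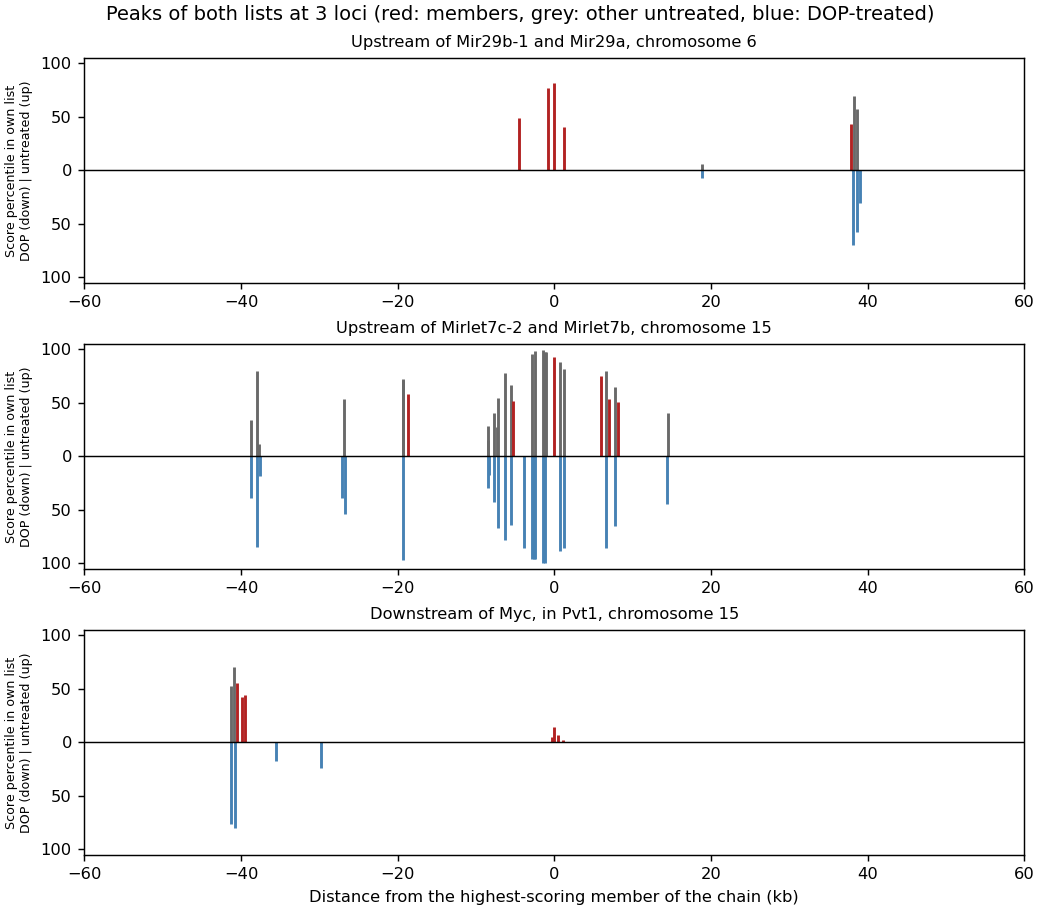
Peaks of both lists within 60 kb of the highest-scoring member of 3 chains, plotted by distance (kb, in the direction of the chromosome) with the score percentile of untreated peaks in their own list upwards and of DOP peaks in theirs downwards. Members are red, other untreated peaks grey and DOP peaks blue. The chain at Mir29b-1 and the Pvt1 chain in the middle of its panel have no blue bar beside them. Another Pvt1 chain, farther left in the same panel, lies beside DOP peaks, and the chain at Mirlet7c-2 lies among 10 DOP peaks.

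Myc, which encodes a transcription factor of growth and proliferation, was the nearest gene to more members than any other. Its 10 members lay in 3 chains between 51257 and 341982 bp downstream of its start, and all 10 were inside the lincRNA gene Pvt1 (chromosome 15, 61869542 to 62209651). The first chain, 618 bp or more from the start of Pvt1, had scores of 451, 335.2 and 349.8 and was 209 to 1270 bp from the centre of a DOP peak at percentile 80.1 of its list. The second chain had 4 members with scores of 52.8, 123.2, 72 and 34, and its span held no DOP peak, the nearest centre being 29491 bp away. The third had scores of 128, 137.1 and 46.9, at 188990 bp or more from a DOP centre. Thus, at Myc the higher scores stood beside DOP peaks and the isolated members were lower.

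Chains of members with no DOP peak in their span were also found near 2 other genes. Near Frmd6, which encodes an upstream component of Hippo signalling, 5 members between 51.9 and 159 lay 81167 to 88813 bp from a DOP centre and were the only untreated peaks of their span. Near Cdkn2b, an inhibitor of cyclin-dependent kinases, a chain of 4 members between 72 and 124.8 lay 41541 to 58856 bp from a DOP centre. A chain in an intron of Ergic1 (60 to 310.7), another in an intron of Trio (190 to 310) and the chain nearest Nfatc2 (48.9 to 92.4) each held 1 DOP peak. The nearest start to the Trio chain was that of Fam105a, at 96591 bp or more.

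The 1832 members had 1351 nearest genes, and 999 of these genes had 1 member. Chained within 10 kb, the members formed 1509 chains, of which 1245 had a single member and 9 had at least 4. After Myc, the genes nearest to the most members were Dst, a cytoskeletal linker (6 members, all in introns), Gm17391 (6), Ppara (5), Nfix, a nuclear factor I transcription factor (5, all in introns), 4930467E23Rik (5), Frmd6 (5), Cdkn2b (5), St3gal3, a sialyltransferase (5, all in introns), and 2010111I01Rik (4). All 5 members near 4930467E23Rik and 5 of the 6 near Gm17391 had at least 50% of their 36-base words found again in the assembly, and none of the members near the other 8 genes did. All of these genes except 4930467E23Rik had a peak within 1 kb of a start in both lists.

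Acetylation near the start of the nearest gene was mostly called in both lists. For 1226 members (66.9%) the nearest gene had a peak within 1 kb of a start in both lists, for 545 (29.7%) in neither, for 26 (1.42%) in the untreated list alone and for 35 (1.91%) in the DOP list alone. Shared distal untreated peaks gave 62.8%, 33.2%, 1.5% and 2.51% in the same order.

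Gene groups fixed for the study's subject, with earlier results known, held few of the members. Of 27 annotated sphingolipid genes, 2 were nearest to 5 members (0.273% of members). The share of this group was 0.234% of all distal untreated peaks, which include the members, and 0.358% of DOP-only distal peaks. The 2 genes were receptors of sphingosine-1-phosphate, with 3 members near S1pr1 that scored 33.2 to 36 and 2 near S1pr3 that scored 180 and 94. The S1pr3 members were 112175 and 110862 bp from a DOP centre. Neural and striatal regulators were nearest to 18 members (0.983% against 0.808%, and 1.16% of DOP-only distal peaks). Among them were Zfhx3 (1 member, score 131), Foxp1 (3 members, highest score 100) and Nfia (56). Zfhx3, Foxp1 and Nfia were also nearest to 3, 7 and 5 DOP-only distal peaks. Axon guidance genes were nearest to 9 members (0.491% against 0.319%, and 0.403% of DOP-only distal peaks). Of these 9, 2 lay in an intron of Ntn1, which encodes the guidance cue netrin-1. The Ntn1 members scored 152.5 and 118.5 and lay 72489 and 72997 bp from a DOP centre.

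Adhesion and matrix genes were nearest to 12 members (0.655% against 0.85% of all distal untreated peaks, and 1.48% of DOP-only distal peaks). The highest was a member in an intron of Tns3, a focal adhesion protein, with a score of 232 and a DOP centre 551 bp away, and Col5a1, a fibrillar collagen gene, had 3 members with a highest score of 129. Immediate early and stress genes were nearest to 12 as well (0.655% against 0.871%, and 0.537% of DOP-only distal peaks). Fos, an AP-1 subunit, had 3 members with scores of 206, 95 and 24, and Klf10, a TGF-beta-induced factor, had 3 with scores of 123, 61 and 51.

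By place, 1076 members (58.7%) lay outside protein-coding genes, 728 (39.7%, interval 37.5 to 42.0%) in introns, 24 in coding exons and 4 in untranslated regions. A further look at the first group found 128 members inside non-coding genes. These were 6.99% of members, against 12% of shared distal untreated peaks and 6.35% of DOP-only distal peaks. Introns held 27.3% of shared distal untreated peaks and 38.7% of DOP-only distal peaks, and they held 50.1% of all untreated peaks and 32.2% of the positions of a 10-kb grid that were themselves distal. Members were in introns more often than shared distal peaks (difference of 12.5 percentage points, adjusted p = 6.59e-18, two-sided Fisher's exact test with Benjamini-Hochberg adjustment over 32 tests). Against DOP-only distal peaks the difference was 0.991 points (interval -2.02 to 4.01, adjusted exact p = 0.751). Neighbouring peaks were counted singly in these tests. With 1 peak per 10-kb chain, the difference from shared distal peaks was 9.09 points (adjusted exact p = 2.37e-07). In the lowest 20% by score it was 8.22 points (adjusted exact p = 3.75e-05). For 578 of the intronic members (79.4%) the nearest start was that of the host gene itself. The same held for 79.9% of intronic shared distal peaks and 74.8% of intronic DOP-only distal peaks. The distance to the nearest start had a median of 34174 bp, 502 members (27.4%) were within 20 kb, and 290 (15.8%) were beyond 100 kb. Shared distal peaks gave 27.5% and 13% for these 2 ranges, and DOP-only distal peaks 27.2% and 14.8%.

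The members were poorer in G and C than shared distal peaks. Median GC content was 50.5% in members, 55.0% in shared distal untreated peaks, 51.5% in DOP-only distal peaks, 59.5% in all untreated peaks and 41.0% on the grid. The median number of CpG dinucleotides was 3, 6, 3, 11 and 1 in the same order. A GC content of at least 50% was found in 56.1% of members and 76.0% of shared distal peaks (adjusted exact p = 3.62e-44), and in 59.1% of DOP-only distal peaks (adjusted exact p = 0.162, difference -2.99 points, interval -6.04 to 0.0591). The score moved with GC content among shared distal peaks, whose median GC was 53.0% in the lowest 20% of the list, 55.0% between percentiles 20 and 50 and 63.0% in the top 50%. In members it was 50.5%, 53.0% and 49.5%, the last over 39 peaks (interval 47.5 to 58.0%). Within the lowest 20% of the list, GC of at least 50% was found in 55.4% of members and 69.6% of shared distal peaks.

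**Figure D3:**
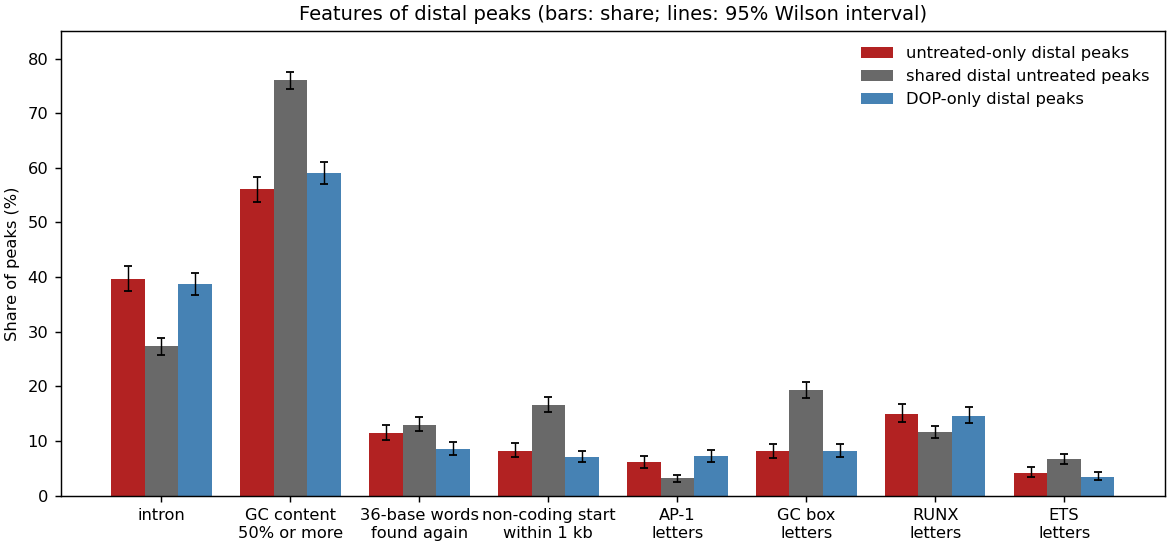
Share of peaks (%) with each of 8 features in the 1832 untreated-only distal peaks, the 2873 shared distal untreated peaks and the 2235 DOP-only distal peaks, with 95% Wilson intervals. Members and DOP-only distal peaks lie close together in most features, and both stand apart from shared distal peaks in introns, GC content, non-coding starts and GC box letters.

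Starts of non-coding transcripts lay within 1 kb of 8.19% of members and 16.6% of shared distal untreated peaks (adjusted exact p = 1.45e-16), and of 9.11% of all untreated peaks and 7.07% of DOP-only distal peaks (adjusted exact p = 0.358, difference 1.12 points, interval -0.514 to 2.79). Pseudogenes were the most frequent kind, at 74 members (4.04%, against 5.53% of shared distal untreated peaks). They were followed by lincRNAs at 24 (1.31% against 5.4%) and processed transcripts at 22 (1.2% against 2.96%). The share near any non-coding start was 12.6% among the 372 members within 2 kb of a DOP centre and 7.46% among the isolated ones. A start whose protein-coding gene had an untreated promoter peak was nearest to 92.8% of all untreated peaks, most of which lie at promoters. It was nearest to 68.3% of members and 64.3% of shared distal peaks (adjusted exact p = 0.0162), a difference that did not pass when each 10-kb chain was counted once (adjusted exact p = 0.147) or in the lowest 20% by score (adjusted exact p = 0.155).

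Letters of 10 known motifs were searched on both strands of each peak, and a match is a description of sequence, not of binding. AP-1 letters (TGACTCA) were present in 6.06% of members, 3.13% of shared distal peaks, 7.20% of DOP-only distal peaks, 2.07% of all untreated peaks and 3.08% of grid windows of the same length. The difference from shared distal peaks was 2.93 points (adjusted exact p = 1.22e-05), and the difference from DOP-only distal peaks was -1.14 points (interval -2.67 to 0.408, adjusted exact p = 0.295). Within the lowest 20% by score, the values were 6.46% and 4.38%, and the difference of 2.07 points did not pass the test (adjusted exact p = 0.0674). AP-1 letters were in 7.02% of isolated members and 2.69% of members within 2 kb of a DOP centre, a split by the distance the rule used, which was not tested. Of 117 matches, 54 lay within 50 bp of the centre of their 200-bp peak, and the median distance from the centre was 57 bp. The letters were thus not concentrated at the centre.

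The GC box (GGGCGG, bound by Sp and Klf proteins) went the other way, with 8.08% of members against 19.3% of shared distal peaks (adjusted exact p = 2.81e-26), 8.19% of DOP-only distal peaks, 29.3% of all untreated peaks and 1.49% of grid windows. ETS letters (CCGGAA) were found in 4.15% of members and 6.65% of shared distal peaks (adjusted exact p = 0.00151), and RUNX letters (ACCACA) in 15% and 11.6% (adjusted exact p = 0.00322), while all untreated peaks held them at 8.85% and 8.42% and grid windows at 1.35% and 13.6%. Neither passed within the lowest 20% by score, with adjusted exact p of 0.0883 and 0.126. TEAD letters (GGAATG) were in 10.9% of members and of grid windows, 8.24% of all untreated peaks, and 13.5% of DOP-only distal peaks, a difference of -2.55 points (adjusted exact p = 0.0462) that did not pass under 3 of the alternatives.

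The other 5 motifs passed neither comparison. E-box letters (CAGCTG) were in 14.1% of members, 13.6% of shared distal peaks, 16.1% of DOP-only distal peaks, 11.1% of all untreated peaks and 6.95% of grid windows. Sox letters (CATTGT) were in 7.86%, 6.96%, 8.14%, 4.74% and 13% in the same order. CTCF core letters (CCA and AG separated by any pair of bases, then GGC after another pair) were in 0.983% of members and 1.09% of all untreated peaks. CRE letters (TGACGTCA) were in 0.164% and 0.228% of these. Letters of NFI (TTGGC and GCCAA with 5 unspecified bases between them) were in 0 members and 5 of all untreated peaks. In all, 8 of 16 features differed from shared distal peaks (50%) and 2 of 16 from DOP-only distal peaks (12.5%).

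**Figure D4:**
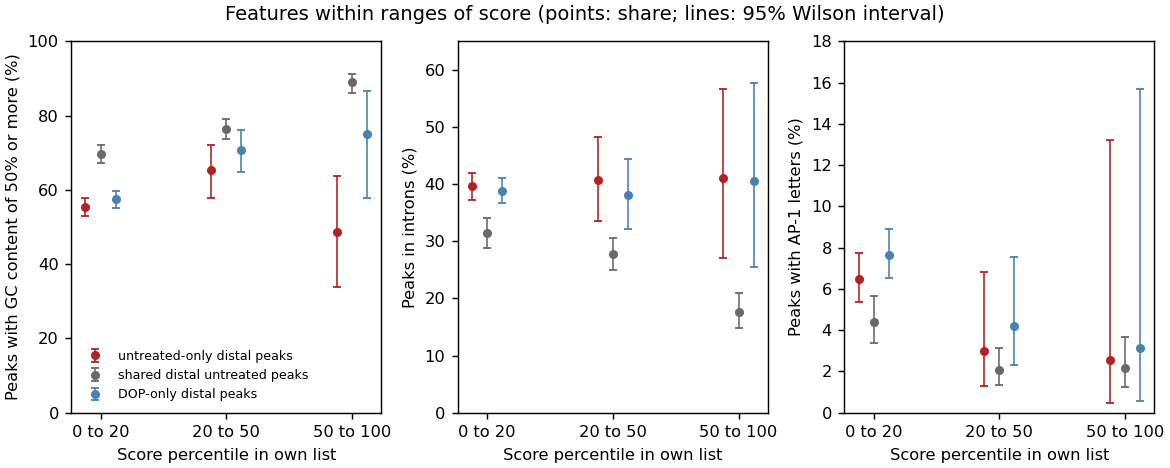
Share of peaks with a GC content of at least 50%, in introns and with AP-1 letters (%), in 3 ranges of score percentile within each list, with 95% Wilson intervals. Members (red) stay below shared distal peaks (grey) in GC content and above them in introns in all 3 ranges, whereas their AP-1 intervals overlap in each range.

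Repeated sequence was present in a minority of members. At least 25% of the 12-base words were repeated within 1 kb in 2.35% of members and 0.663% of all untreated peaks, against 1.88% of shared distal peaks (adjusted exact p = 0.447) and 1.92% of DOP-only distal peaks (adjusted exact p = 0.555). At least 50% of the 36-base words occurred again in the assembly in 11.5% of members and 13.0% of shared distal peaks (adjusted exact p = 0.286). In DOP-only distal peaks the share was 8.50%, and this difference of 2.96 points (interval 1.11 to 4.85) passed the test (adjusted exact p = 0.0071). Within the lowest 20% by score, the difference between members and shared distal peaks was -4.59 points (adjusted exact p = 0.00279). Among the 39 members in the top 50%, 4 were repeated in this sense. Read lengths and the handling of reads with several matches are not given in the sources used here, and their part in these differences was not tested.

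By chromosome, the members were spread much as the shared distal untreated peaks. Of 21 chromosomes, only chromosome 19 differed (4.76% of those tested), with 30 members (1.64%) against 126 shared distal peaks (4.39%, adjusted exact p = 2.08e-06 over the chromosomes). Counted as 10-kb chains, which removes the weight of dense loci, chromosome 19 held 25 chains of members and 74 of shared distal peaks (adjusted exact p = 0.00272).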

How the data were processed

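H3K9ac ChIP-seq of STHdh Q111 cells was represented by 2 peak lists, 1 per condition. The authors aligned single-end reads to mm9 (Bowtie 2 in the paper, BWA 0.7.10 in the submitters' processing notes) and called events with GPS (paper) or GEM (track lines of the lists). Column 5 of each deposited list holds the authors' score, whose definition, threshold, use of the IgG sample and pooling are not stated. Sequencing depth is unknown, and the intervals reflect only how many peaks were counted. The IgG sample and wild-type cells were not analysed here.

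Peaks, which are 200 bp long except for 1, overlapped when they shared at least 1 bp. Starts, exons and untranslated regions came from protein-coding transcripts of GENCODE vM1, and sequence from NCBIM37 (mm9), with 0 peaks past a chromosome end. The assembly held no repeat masking, so repetition was measured as the share of 12-base words found at least 3 times within 1 kb, with a limit of 25%, and of 36-base words found again in the assembly, with a limit of 50%. Members were compared with shared distal untreated peaks and with DOP-only distal peaks by two-sided Fisher's exact tests on 16 features, Benjamini-Hochberg adjusted over 32 tests with a threshold of 0.05, and chromosomes in a family of their own. Functions were tested on simulated data.

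The members, gene lists and tests were chosen with earlier results of these data known. Peaks picked for naming were the 12 highest-scoring members and the 5 of the top 50% farthest from a DOP centre. Up to 8 chains of at least 4 members and the peaks at the limits were also picked. Genes picked were the 10 nearest to the most members and up to 8 of each of 5 gene lists. Some of the highest-scoring members and most of the picked list genes are left out of the text above. A further progenitor marker is not reported here. Python 3.11.15, scipy 1.17.1, pandas 2.3.3, numpy 2.4.6, numba 0.67.0, statsmodels 0.14.6, pysam 0.24.0 and matplotlib 3.10.9 were used.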

Additional observations from a re-analysis of the deposited data

How the results depend on the processing

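No paired analysis was possible because each condition was given as 1 peak list, and for the same reason no replicate could be left out. Of 169 values recomputed, 138 were counted as unchanged, 14 moved, 8 lost and 1 gained a call, and 8 changed sign. All 8 sign changes were in differences that did not pass in either setting. Unchanged values kept their direction and side of the threshold, moved within their interval or, for the number of members, stayed within 1.5-fold. The number of members, 1832, ran from 1330 (starts more than 20 kb away) to 2218 (more than 5 kb away) among the settings counted as unchanged. It was 2162 when sharing needed a reciprocal overlap of 50%, and 1460 when a DOP centre within 2 kb counted as shared. The number was 659 with starts more than 50 kb away and 39 in the top 50% by score. In the same 2 settings median GC was 50% and 49.5%, and the share near a non-coding start was 9.71% and 17.9%. The share in introns was 26.3% beyond 50 kb and 37.1% with the starts of all transcripts of protein-coding genes, a setting chosen after seeing the data. Words repeated nearby were 7.69% in the top 50%, 1.58% at a limit of 50% and 1.09% at 75%. Repeated 36-base words were 14.7% beyond 50 kb, 14.7% at a limit of 25% and 7.75% at 75%.

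Against shared distal peaks, in the lowest 20% by score, the differences that no longer passed were 2.07 points for AP-1 (adjusted exact p = 0.0674), 2.76 for RUNX (0.126), -1.82 for ETS (0.0883) and 3.36 for the promoter peak of the nearest gene (0.155), and that of repeated 36-base words, -4.59, newly passed (0.00279). With 1 peak per 10-kb chain, the promoter difference was 3.26 points (0.147). The TEAD difference from DOP-only peaks was -2.74 points by chain (0.0671), -2.03 in the lowest 20% (0.165) and -2.13 without peaks that had an opposite-list centre up to 2 kb away (0.186). The differences that changed sign were, against shared distal peaks, E-box by chain (-0.266 points) and, in the lowest 20%, E-box (-0.824), Sox (-0.482) and words repeated nearby (-0.263), and, against DOP-only peaks, RUNX in the lowest 20% (-0.105), RUNX (-0.196) and introns (-1.90) without peaks near the opposite list, and the promoter peak by chain (0.0907). The lowest 20% holds fewer peaks, and the causes were not tested. Depth per sample was unknown, so whether a weak member was missed or absent in the DOP samples cannot be told apart.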
